A study of Mus musculus with 24 samples.

Results

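The 5 genes of mouse bone marrow cells described here are Pde2a, Inha, Ndnf, Selenom and Krt8. They were chosen from the same array values that are reported below, for lower values in haematopoietic stem cells (HSC) of Dnmt1 hypomorph mice than in wildtype HSC, or for one of the most negative genotype differences in HSC relative to that in myeloid progenitors (MP). They make up 5 of the 18194 genes that the array names with a single symbol, and all 5 are among the 12765 genes with enough signal to be tested. They are read by 10 probe sets, of which 9 passed the filter on low values. All values were read as log2 intensities after RMA, the summary method for Affymetrix arrays that the authors used, so a difference of 1 is a 2-fold difference in intensity.

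The study compared 13 arrays in 5 groups, each of cells sorted from bone marrow of mice aged 8 to 12 weeks on the 129ola background. Hypomorph mice carried Dnmt1-/chip, a null and a reduced-function allele in every cell, and supplied 3 HSC and 3 MP arrays. Wildtype mice (Dnmt1+/+) supplied 2 HSC, 3 MP and 2 B cell progenitor arrays. No hypomorph B cell progenitor array was analysed here. The labels do not say that arrays of a group came from separate mice, so every p-value below measures only the spread between these arrays, and array numbers are few enough to limit all estimates.

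DNMT1 is the enzyme that copies cytosine methylation at CG dinucleotides onto the new DNA strand when a cell divides. HSC are the rare, self-renewing cells from which all blood lineages arise, and MP are their short-lived descendants committed to granulocytes, monocytes and red cells. The products of the 5 genes have unlike functions. PDE2A breaks down the second messengers cAMP and cGMP and is itself activated by cGMP. The alpha subunit of inhibin, made by Inha, pairs with an activin beta subunit to form inhibin, which opposes activin signalling. NDNF is a secreted factor first described in neurons, SELENOM is a selenocysteine-containing oxidoreductase of the endoplasmic reticulum, and keratin 8, made by Krt8, forms the filaments of simple epithelia together with keratin 18.

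Because the genotype acts on CG methylation, the CG dinucleotides near the transcription starts are shown for the members with an annotated promoter sequence. RefSeq promoter sequence of the GRCm38.p6 build, from 250 bases before to 50 bases after each annotated start, was matched by symbol for 4 of the 5 members, giving 8 windows, of which 5 belong to Pde2a. No methylation was measured in these samples. The lower-case sequences below run 5′ to 3′ on the gene's own strand, and capitals mark each CG. Of the Pde2a windows, the most upstream (start 1, chr7:101421441-101421740, plus strand) and the one richest in CG (start 4, chr7:101451002-101451301, plus strand) are shown as the extremes of that gene. The others are Inha (chr1:75507359-75507658, plus strand), Selenom (chr11:3514434-3514733, plus strand) and Krt8 (chr15:102004293-102004592, minus strand).
Pde2a start 1: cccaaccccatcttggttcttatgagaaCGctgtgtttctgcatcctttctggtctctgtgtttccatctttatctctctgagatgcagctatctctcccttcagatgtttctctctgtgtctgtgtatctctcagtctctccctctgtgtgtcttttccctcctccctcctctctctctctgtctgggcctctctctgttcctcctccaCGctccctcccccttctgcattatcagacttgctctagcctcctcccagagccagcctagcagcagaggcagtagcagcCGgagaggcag
Pde2a start 4: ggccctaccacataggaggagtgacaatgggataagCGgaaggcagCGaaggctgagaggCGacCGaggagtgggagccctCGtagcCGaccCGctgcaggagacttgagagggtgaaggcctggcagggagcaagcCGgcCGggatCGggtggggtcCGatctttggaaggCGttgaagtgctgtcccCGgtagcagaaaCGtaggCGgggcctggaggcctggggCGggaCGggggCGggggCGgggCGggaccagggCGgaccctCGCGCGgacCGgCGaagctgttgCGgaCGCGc
Inha: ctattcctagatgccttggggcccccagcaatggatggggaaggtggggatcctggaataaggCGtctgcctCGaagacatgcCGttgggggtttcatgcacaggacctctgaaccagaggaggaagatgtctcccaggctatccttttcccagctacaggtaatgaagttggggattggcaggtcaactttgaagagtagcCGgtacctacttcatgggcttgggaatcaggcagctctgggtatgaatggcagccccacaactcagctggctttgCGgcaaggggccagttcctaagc
Selenom: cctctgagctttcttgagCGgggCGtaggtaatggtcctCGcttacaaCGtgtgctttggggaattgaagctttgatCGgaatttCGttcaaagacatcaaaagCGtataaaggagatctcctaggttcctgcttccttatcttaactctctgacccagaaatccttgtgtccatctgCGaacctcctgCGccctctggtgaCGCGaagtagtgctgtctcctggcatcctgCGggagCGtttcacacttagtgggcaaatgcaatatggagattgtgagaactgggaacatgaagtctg
Krt8: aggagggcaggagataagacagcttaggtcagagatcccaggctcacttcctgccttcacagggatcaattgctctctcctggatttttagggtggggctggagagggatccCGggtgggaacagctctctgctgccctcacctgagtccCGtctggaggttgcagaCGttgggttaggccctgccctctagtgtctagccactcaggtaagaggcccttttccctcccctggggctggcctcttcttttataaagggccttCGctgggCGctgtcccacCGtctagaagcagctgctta

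The windows differed widely in CG content. Pde2a start 4 held 29 CG dinucleotides, more than 87.1% of the 32851 promoter windows of all genes, whereas Pde2a start 1 held 3. Selenom held 13, Krt8 held 6 and Inha held 5, against a median of 7 and quartiles of 3 and 20 over all windows. The 4 genes therefore share no common CG density around their starts. In addition, 4 short motifs were searched on both strands. The TATA-box letters TATAAA were in 2 of the 8 windows (Selenom and Krt8) and in 13.6% of all windows. The Sp1-type letters GGGCGG were in 1 (Pde2a start 4, which held 5 copies) and in 35.7% of all, CCAAT was in 2 and in 37.4% of all, and the GATA-factor letters GATAA were in 5 and in 25.4% of all. The windows of Pde2a starts 3 and 4 overlap and share 1 of the GATAA matches, which is counted in both. These matches only describe letters, and motifs may overlap each other.

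**Figure D1:**
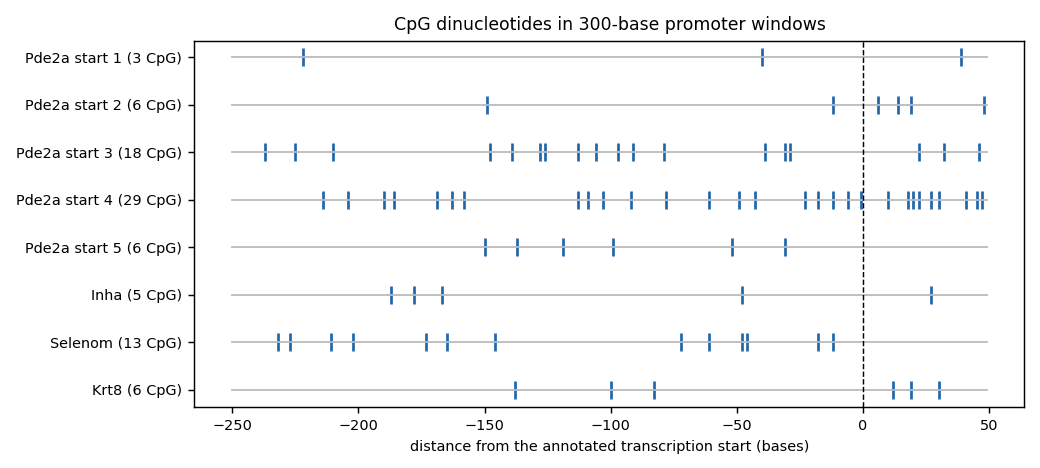
Positions of CG dinucleotides (vertical ticks) in the 8 promoter windows of 300 bases, plotted against the distance in bases from the annotated transcription start (dashed line). The count of each window is given beside its name; Pde2a start 4 holds the most (29) and Pde2a start 1 the fewest (3).

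Where a gene had several probe sets, the one with the highest mean over the 13 arrays stood for it. Pde2a gave 9.79, 9.68 and 9.50 in the 3 hypomorph HSC arrays, against 11.96 and 12.99 in the 2 wildtype HSC arrays. It gave 11.09, 11.09 and 10.93 in hypomorph MP, against 10.75, 11.01 and 10.90 in wildtype MP, and 13.84 and 14.10 in B cell progenitors. All hypomorph HSC arrays lay below all other arrays, the 2 MP genotypes overlapped, and the B cell progenitor arrays were the highest. The log2 difference between genotypes was -2.82 (SE 0.26) in HSC, a 7.08-fold lower intensity in hypomorph HSC, and 0.15 (SE 0.23) in MP.

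Inha gave 5.65, 5.20 and 4.77 in hypomorph HSC, against 7.49 and 8.15 in wildtype HSC. In hypomorph MP it gave 3.78, 4.32 and 4.15, against 4.54, 4.47 and 4.47 in wildtype MP, and B cell progenitors gave 4.57 and 4.31. Hypomorph HSC lay apart below wildtype HSC and apart above every MP array, and each hypomorph MP array was also below each wildtype MP array. The log2 difference was -2.61 (SE 0.28) in HSC, a 6.12-fold lower intensity, and -0.41 (SE 0.25) in MP. The HSC groups were the only ones with a mean over the filter value of 4.64, the median of all values on the 13 arrays, so the MP and B cell progenitor levels are low.

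Ndnf gave 5.07, 4.17 and 3.94 in hypomorph HSC, against 9.18 and 5.85 in wildtype HSC. It gave 3.62, 3.62 and 3.84 in hypomorph MP, against 3.63, 3.85 and 3.66 in wildtype MP, and 3.77 and 3.32 in B cell progenitors. The wildtype HSC arrays stood above all others but far from each other. Hypomorph HSC arrays 2 and 3 and all MP and B cell progenitor arrays lay under the filter value. The log2 difference was -3.12 (SE 0.65) in HSC, an 8.69-fold lower intensity, and -0.02 (SE 0.58) in MP. A single array sets the size of the HSC difference, which was -1.45 without wildtype HSC array 1 and -4.78 without wildtype HSC array 2. Ndnf passed the filter only through the 2 wildtype HSC arrays, since 1 other array reached it and 2 were required.

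Selenom gave 4.93, 5.23 and 5.84 in hypomorph HSC, against 6.73 and 7.10 in wildtype HSC. In MP the order was turned round, with 7.16, 7.48 and 6.38 in hypomorph MP, against 5.15, 6.19 and 5.75 in wildtype MP. B cell progenitors gave 3.58 and 5.10. Neither pair of genotypes overlapped. The log2 difference was -1.58 (SE 0.45) in HSC, a 3.00-fold lower intensity, and 1.31 (SE 0.40) in MP, a 2.48-fold higher intensity in hypomorph MP. Selenom is therefore a member that was lower in hypomorph HSC and also higher in hypomorph MP, so the label of a gene lower in hypomorph HSC covers only part of its difference between the cell types.

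Krt8 gave 5.43, 5.26 and 4.71 in hypomorph HSC, against 8.02 and 7.42 in wildtype HSC. It gave 5.69, 5.82 and 5.38 in hypomorph MP, against 5.62, 5.73 and 5.36 in wildtype MP, and 5.16 and 4.97 in B cell progenitors. The wildtype HSC arrays were far above the rest, while hypomorph HSC overlapped MP and B cell progenitors. The log2 difference was -2.59 (SE 0.26) in HSC, a 6.01-fold lower intensity, and 0.06 (SE 0.23) in MP.

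**Figure D2:**
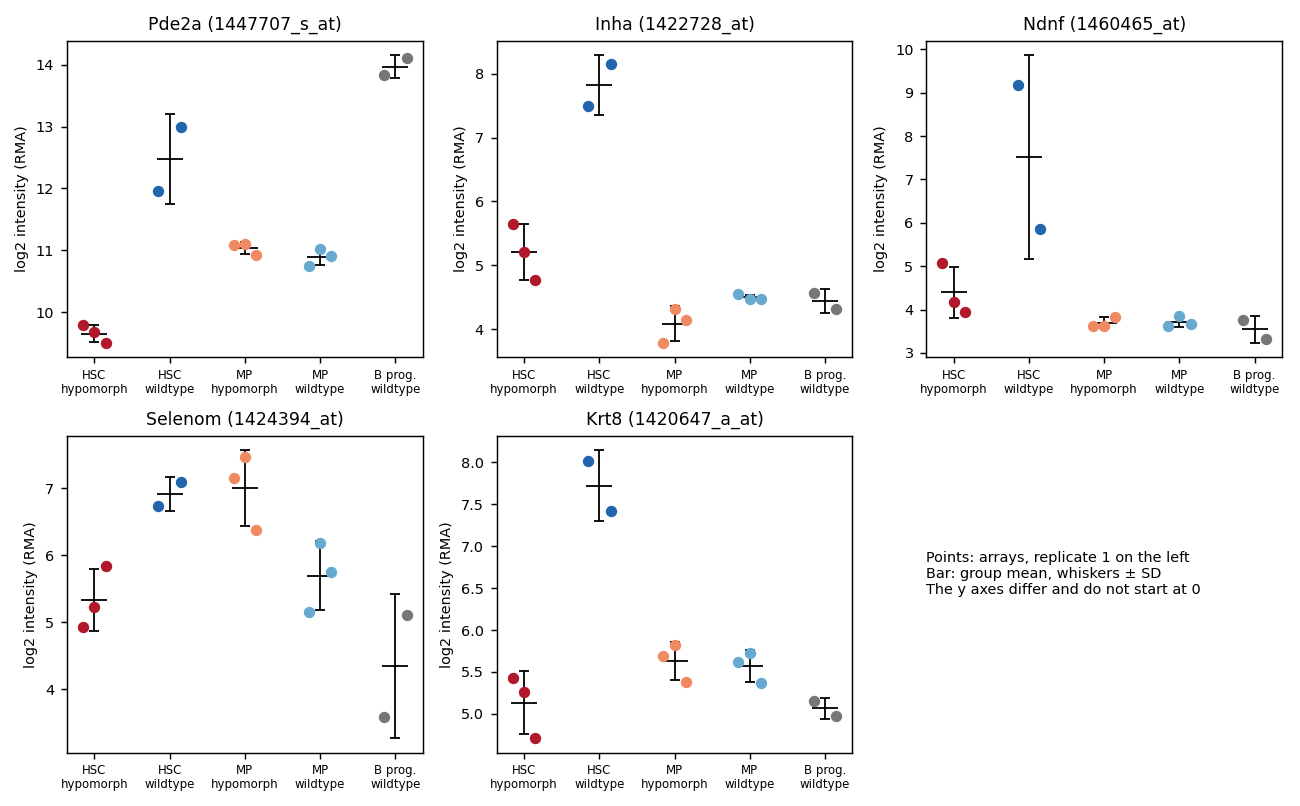
RMA log2 intensity of the 5 genes in each of the 13 arrays (points, replicate 1 on the left), by group, with the group mean (bar) and SD (whiskers). All wildtype HSC arrays lie above all hypomorph HSC arrays in the 5 panels; in MP the genotypes overlap for Pde2a, Ndnf and Krt8, and lie apart for Selenom (hypomorph higher) and Inha (hypomorph lower).

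Sorted by the HSC difference from the lowest, Ndnf ranked 2, Pde2a 3, Inha 6, Krt8 7 and Selenom 106 among the 12765 genes. The genes ranked beside them but not among the members were Mmp2 (rank 1, -4.52), Dnmt1 (rank 4, -2.75), Ndn (rank 5, -2.63) and Meg3 (rank 8, -2.56). Mmp2, Dnmt1 and Ndn were also lower in hypomorph MP, with differences of -2.99, -3.34 and -0.94. Meg3 was not, with an MP difference of 0.16. Sorted by the HSC difference minus the MP difference, Ndnf ranked 1 (-3.10, SE 0.87), Pde2a 3 (-2.97, SE 0.35), Selenom 4 (-2.89, SE 0.60), Krt8 6 (-2.64, SE 0.35) and Inha 24 (-2.20, SE 0.37). Other genes stood between and beside them: BC018473 (rank 2, -2.99), Meg3 (rank 5, -2.72), Socs2 (rank 7, -2.62) and Htra3 (rank 8, -2.57). A fall mainly in hypomorph HSC was therefore not particular to the members, since Htra3 gave -2.52 in HSC and 0.05 in MP. Over all genes, limma called this difference of effects for 5.64%, 2.37% more negative (303 genes) and 3.27% more positive (417 genes) in HSC; with each array centred on its median these were 173 and 485. For the members these values were the basis of choice, so they are a description without a test.

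The probe sets of a gene did not all give the same size. Every hypomorph HSC array was below every wildtype HSC array for 9 of the 10 probe sets, a pattern shared by 22.4% of all genes tested. Pde2a was -2.75 in HSC by its 1452202_at probe set but -0.60 by its 1447708_x_at probe set, so the 3 probe sets of Pde2a shared a direction and not a size. Krt8 was -2.28 and -2.09 in HSC by its other probe sets, and -2.59 by the one used. The -2.28 belongs to 1423691_x_at, which, like the Ndnf probe set, passed the filter only through the wildtype HSC arrays. The second probe set of Ndnf, 1453225_at, was under the filter on all 13 arrays and differed by -0.09 in HSC. In MP the genotypes overlapped for 6 of the 10 probe sets, the hypomorph arrays were all higher for 2 (Selenom and 1447708_x_at of Pde2a) and all lower for 2 (Inha and 1423691_x_at of Krt8). All genes tested gave all-higher in 11.4% and all-lower in 16.3%. Probe sets whose names end in _s_at or _x_at can bind other transcripts, which touches 2 of Pde2a and 2 of Krt8. The probe set used for Pde2a, 1447707_s_at, is among them, and the one used for Krt8 is not.

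**Figure D3:**
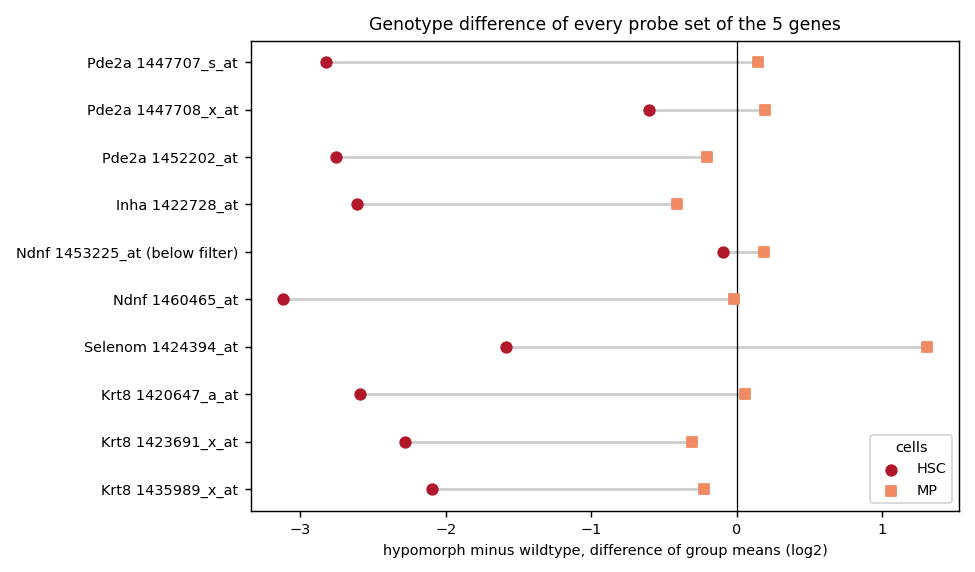
Difference of group means, hypomorph minus wildtype (log2), for the 10 probe sets in HSC (circles) and MP (squares), 1 probe set per row. HSC differences run from -3.12 to -0.09, while MP differences run from -0.41 to 1.31.

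B cell progenitors were compared with wildtype MP. With limma over all genes, 35.9% of genes differed between them at an adjusted p under 0.05, 11.2% higher and 24.7% lower in B cell progenitors. The wildtype MP arrays entered the choice of the members, so their values are given without a test. Pde2a differed by 3.08 (SE 0.26), an 8.46-fold higher intensity in B cell progenitors, with both B cell progenitor arrays above all 3 wildtype MP arrays. Selenom differed by -1.36 (SE 0.45), again without overlap, and by -0.60 without B cell progenitor array 1, the lower of the pair. Krt8 differed by -0.51 (SE 0.26). For Inha and Ndnf, with all these arrays under the filter value, no difference is given.

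Across the 5 groups the genes thus had 3 kinds of order. Inha, Ndnf and Krt8 were highest in wildtype HSC, and no other group overlapped it. For Inha and Ndnf the hypomorph HSC came next and apart from both MP groups and B cell progenitors, which overlapped their neighbours in the order. For Ndnf, however, the hypomorph HSC mean (4.39) was under the filter value of 4.64. The lowest hypomorph HSC array (3.94) was close to the highest wildtype MP array (3.85), so this step in the Ndnf order lies in low signal. For Krt8 the remaining 4 groups overlapped their neighbours throughout. Pde2a ran from B cell progenitors through wildtype HSC and the overlapping MP groups to hypomorph HSC, and Selenom from hypomorph MP, overlapping wildtype HSC, down to B cell progenitors.

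Likeness between genes was measured as the root mean square difference between 2 log2 profiles over the 13 arrays, after each profile was centred on its own mean, so that 0 is the same profile. Among the members, Inha and Krt8 were the most alike (0.724) and Pde2a and Ndnf the least (1.99). The 3 tested genes nearest to Inha were Krt7, a keratin (0.336), Art4 (0.348) and Dixdc1 (0.360). Those nearest to Krt8 were Peg3, an imprinted zinc finger gene (0.316), Ttc23 (0.350) and Lrrc36 (0.357). These 6 genes had HSC differences between -2.16 (Art4) and -1.66 (Lrrc36) and MP differences between -0.49 (Ttc23) and 0.17 (Lrrc36). Peg3, Lrrc36 and Dixdc1 had means under the filter value in every group but wildtype HSC, and Krt7 did in both MP groups. Their MP differences therefore lie in low signal.

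The nearest genes to the other 3 members were less like them. Ndnf was nearest to Ccn3, a secreted matrix-associated protein (0.640), Ecscr, an endothelial surface protein (0.703), and Osgin1 (0.704), which were lower in hypomorph HSC by -2.12, -1.94 and -1.43. Pde2a was nearest to Adgre5, a leukocyte adhesion receptor (0.666), Sp4, a transcription factor (0.684), and Pik3ap1, a signalling adaptor of B cells (0.691). These share its high level in B cell progenitors, with HSC differences of only -0.74, -1.28 and -0.76. Selenom was nearest to Endog, a mitochondrial nuclease (0.417), Atp5l, an ATP synthase subunit (0.471), and Morn2 (0.473). Like Selenom, all 3 were lower in hypomorph HSC (-0.81, -0.35 and -0.86) and higher in hypomorph MP (0.95, 0.99 and 0.60). The distances were computed on the arrays that chose the members and carry no test.

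**Figure D4:**
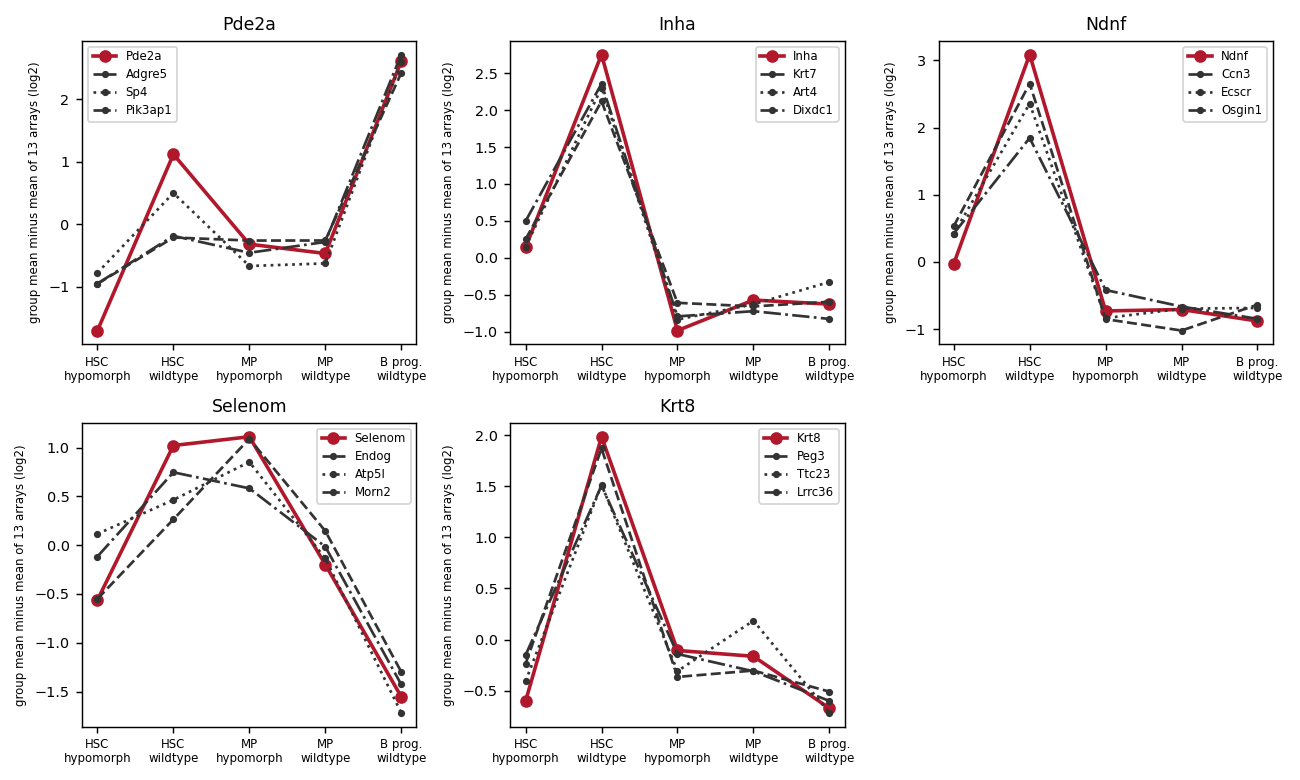
Group means of each member (red) and its 3 nearest genes (black), each minus its mean over the 13 arrays (log2), in the 5 groups. The lines of Inha and Krt8 lie close to those of their nearest genes, with a single peak in wildtype HSC, while the nearest genes of Pde2a share its peak in B cell progenitors and are less low in hypomorph HSC.

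The partners and relatives of the 5 products were then examined in 8 gene lists with 137 genes, of which 103 were tested with limma. In HSC, 10.8% of all genes tested changed, 5.44% lower (694 genes) and 5.37% higher (686 genes) in hypomorph cells; with each array centred on its median, 453 were lower and 749 higher. Of the 103 listed genes, 12 fell and 4 rose in hypomorph HSC, which is 15.5% of them, with a median log2 difference of -0.20 against -0.11 over all genes. In MP, 0.588% of all genes tested changed, 0.251% lower and 0.337% higher, and 1 of the 103 fell (0.971%). The HSC counts lean on single arrays: they were 6 fallen and 0 risen without wildtype HSC array 2, and 7 and 0 without hypomorph HSC array 2. Of these 16 HSC calls, 12 were lost without wildtype HSC array 2, 9 without hypomorph HSC array 2 and 4 without wildtype HSC array 1. With only the arrays of the comparison in the fit, 13 of the 16 were lost. The calls of Pde1b, Krt7 and Krt18 were lost under none of the alternatives tried. In MP, the genes of smallest p in the lists with no call were Pde5a (-0.56, limma adjusted p = 0.327), Gucy1a1 (-1.12, 0.198), Acvr1 (-1.47, 0.224), Secisbp2 (-0.78, 0.202), Evpl (0.95, 0.203), and Krt18 and Selenop, given below.

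The keratins held 4 tested genes besides Krt8, and 2 of them fell in hypomorph HSC. Krt18, the filament partner of keratin 8, gave 9.63, 9.68 and 9.13 in hypomorph HSC, against 11.07 and 11.38 in wildtype HSC. Krt7 gave 4.996, 4.73 and 4.59 in hypomorph HSC, against 6.43 and 6.86 in wildtype HSC. In both genes the genotypes lay apart by more than the spread within either. Krt18 differed by -1.75 (SE 0.28, limma adjusted p = 0.00196) and Krt7 by -1.87 (SE 0.22, limma adjusted p = 2.25e-04). In MP, Krt18 differed by -0.76 (limma adjusted p = 0.217). Of the 13 other intermediate filament and linker genes, 1 passed in HSC: Vim, the filament protein of mesenchymal and blood cells, rose by 1.09 (SE 0.25, limma adjusted p = 0.0135), though not without hypomorph HSC array 2 (1.01, 0.0550) or wildtype HSC array 2 (0.84, 0.164).

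Krt18 is also the neighbour of Krt8 on chromosome 15 in the RefSeq annotation. This was looked up after the values were seen, and for each member the gene on either side was taken. Of the 10 neighbours, 7 were tested, and Krt18 was the only one of them that limma called in HSC (0 in MP), where 10.8% of all genes were called. The other neighbour of Krt8, Krt78, differed by -0.06 (limma adjusted p = 0.892). Arap1 beside Pde2a (-0.79, 0.114) and Smtn beside Selenom (-0.76, 0.120) did not pass.

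For Pde2a, the other cyclic nucleotide phosphodiesterases and the enzymes that make or sense cAMP and cGMP were listed. Of 12 tested phosphodiesterases, 2 fell in hypomorph HSC and none rose. Pde1b, a calcium-activated phosphodiesterase, gave 5.75, 5.51 and 6.03 in hypomorph HSC, against 7.43 and 7.56 in wildtype HSC (-1.74, SE 0.24, limma adjusted p = 5.80e-04). Pde9a, which is specific for cGMP, fell by 1.11 on the log2 scale (limma adjusted p = 0.0160), a call lost without wildtype HSC array 2 (-1.08, 0.112). Among 15 tested cyclases and kinases, 3 fell and 1 rose in hypomorph HSC. Npr2, a natriuretic peptide receptor that makes cGMP, fell by 2.05 (limma adjusted p = 0.00944), with 7.48, 6.96 and 5.84 in hypomorph HSC, against 8.34 and 9.29 in wildtype HSC. Adcy9, an adenylyl cyclase, fell by 1.54 (limma adjusted p = 0.0134). Adcy6, another adenylyl cyclase, was called at -0.83 (limma adjusted p = 0.0425), a call that 16 of 20 alternatives did not keep (up to 0.236). Prkar2b, a regulatory subunit of protein kinase A, rose by 1.01 (limma adjusted p = 0.0156). Without wildtype HSC array 2 these no longer passed (Adcy6 -0.82, limma adjusted p = 0.205; Npr2 -1.58, limma adjusted p = 0.140; Adcy9 -1.16, 0.180; Prkar2b 0.74, 0.191), nor did Prkar2b (0.94, 0.0621) and Adcy6 (-0.82, 0.114) without hypomorph HSC array 2.

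For Inha, 18 genes of activin and TGF-beta signalling were tested, and 2 fell and 1 rose in hypomorph HSC. The beta subunits that pair with the Inha product did not pass: Inhba differed by -0.22 (limma adjusted p = 0.529) and Inhbb by -0.44 (0.163). Smad6, an inhibitory Smad, fell by 1.20 (limma adjusted p = 0.0223), but not without wildtype HSC array 2 (-1.09, 0.173) or hypomorph HSC array 2 (-1.23, 0.0588). Acvr2b, an activin receptor, differed by -1.18 (limma adjusted p = 0.0454), a call that 17 of 19 alternatives did not keep (up to 0.534, without wildtype HSC array 2). Tgfbr1, a TGF-beta receptor, was called at 0.84 (limma adjusted p = 0.0336), a call that 7 of 20 alternatives did not keep, among them the omission of either wildtype HSC array (0.0800 without array 1, 0.163 without array 2) and of hypomorph HSC array 2 (0.106) or 3 (0.0580).

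For Ndnf, whose human product is reported to modulate fibroblast growth factor (FGF) signalling, 14 FGF receptor and co-receptor genes were tested. In hypomorph HSC 3 fell and none rose. Sdc4, a cell-surface proteoglycan, gave 4.32, 4.83 and 4.31 in hypomorph HSC, against 6.96 and 5.47 in wildtype HSC. The difference was -1.73 (SE 0.33, limma adjusted p = 0.00546) and, as for Ndnf, wildtype HSC array 1 was the higher: it was -0.99 (limma adjusted p = 0.0260) without that array. Spry1, an inhibitor of receptor signalling, differed by -0.85 (limma adjusted p = 0.0329), which was lost without wildtype HSC array 1 (-0.94, 0.0518) or 2 (-0.75, 0.217) or hypomorph HSC array 2 (-0.73, 0.119). Fgfrl1, a receptor without a kinase, differed by -0.65 (limma adjusted p = 0.0359), a call that 13 of 20 alternatives did not keep (up to 0.219). In MP, Sdc1, another proteoglycan, fell by 2.61 (limma adjusted p = 5.20e-04). In the authors' second set of RMA values, made without the B cell progenitor arrays, a different probe set had the highest mean and Sdc1 gave -0.08 (limma adjusted p = 0.841).

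For Selenom, 21 other selenoproteins and 6 factors for inserting selenocysteine were tested. One selenoprotein passed in HSC: Selenos, an endoplasmic reticulum membrane protein, was called at 1.12 (limma adjusted p = 0.0377), higher in hypomorph cells and so opposite to Selenom. That call was not kept by 11 of 20 alternatives. It was 0.56 (limma adjusted p = 0.442) without wildtype HSC array 2 and 0.28 (0.342) when the probe sets of a gene were averaged. No insertion factor passed in HSC or MP, and no selenoprotein passed in MP. The smallest adjusted p of the insertion factors in HSC belonged to Trnau1ap (-0.39, limma adjusted p = 0.358), and that of the selenoproteins in MP to Selenop (-0.69, 0.189).

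**Figure D5:**
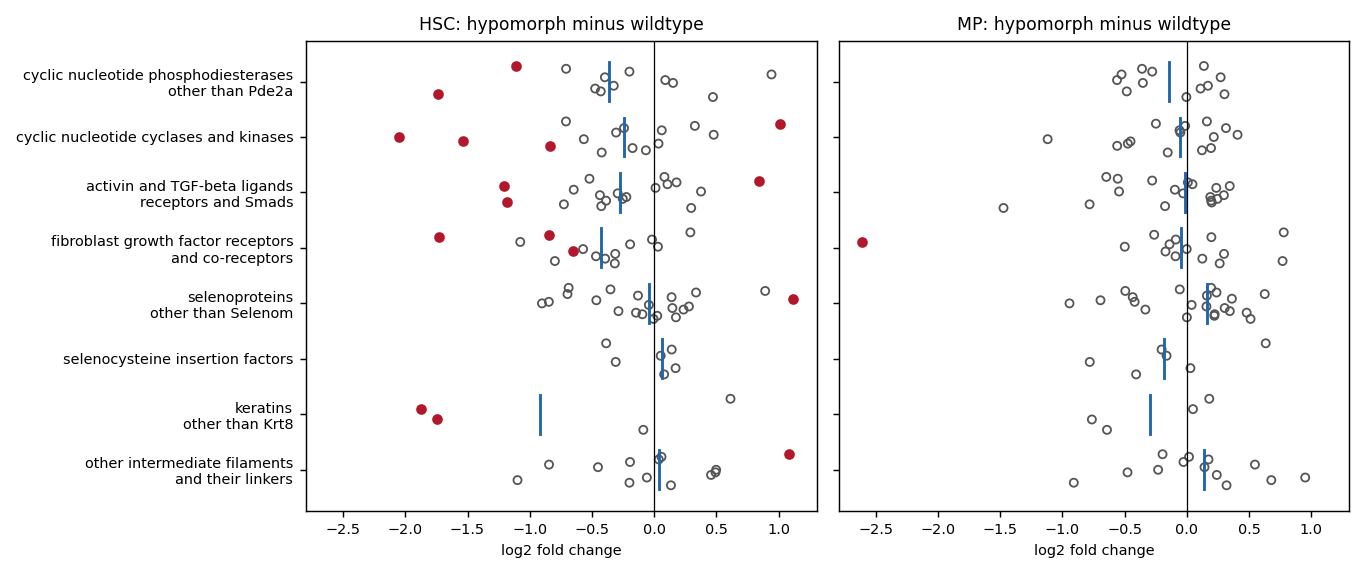
Log2 fold change, hypomorph minus wildtype, of the 103 tested genes in the 8 lists, in HSC (left) and MP (right). Filled red points passed limma at an adjusted p under 0.05, open points did not, and blue lines are list medians; the HSC panel holds 16 red points (12 below 0 and 4 above) and the MP panel 1.

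Signals of other cells and of the array labels were set beside these values. Dnmt1 itself averaged 8.94 ± 0.42 (SD, n = 3) in hypomorph HSC, against 11.7 ± 0.15 (SD, n = 2) in wildtype HSC, and 8.14 ± 0.12 in hypomorph MP, against 11.5 ± 0.22 in wildtype MP (SD, n = 3 each). The sorted populations had their marker profiles: the mean of 9 stem cell markers was 9.40 to 10.36 in HSC arrays and at most 8.36 in the others, and B cell markers averaged 11.4 in B cell progenitors and at most 5.51 elsewhere. Within HSC, however, the stem cell marker mean was 9.40 to 9.95 in hypomorph arrays, against 10.11 to 10.36 in wildtype arrays. Of these 9 markers, 2 fell and 1 rose. The mean of 10 myeloid progenitor markers was 8.24 to 8.69 in hypomorph HSC, against 7.20 to 7.64 in wildtype HSC, with 3 that rose, and 11.75 to 11.95 in MP. The part of this shift in the member differences was not tested. In MP, 4 markers passed limma: in hypomorph MP the stem cell marker Fgd5 fell by 1.74 (adjusted p = 0.0102) and the B cell marker Dntt by 4.18 (1.00e-05), and the myeloid marker Fcgr3 rose by 1.11 (0.0108) and the macrophage marker Vcam1 by 2.16 (0.00550). Their part in the MP difference of Selenom was not tested.

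Krt8 and Krt18 are also epithelial markers. The mean of 8 tested epithelial markers, Krt18 among them, was 5.43 to 5.55 in hypomorph HSC, against 6.004 to 6.08 in wildtype HSC, and 3 fell (Krt18, Cldn7 by 1.07, Ocln by 0.97). Ocln passed the filter only through the wildtype HSC arrays (5.55 and 5.14), so its call is tied to the group where it was high. The other 5 did not pass: Epcam differed by -0.32, Cldn3 by -0.33, Cldn4 by -0.14, Cdh1 by 0.20 and Grhl2 by 0.14, and Cdh1 lay under the filter value in both genotypes (2.94 in hypomorph HSC and 2.73 in wildtype HSC). Of 11 endothelial markers 4 fell (Emcn, Esam, Cldn5 and Eng), with a list mean of 6.16 to 6.91 in hypomorph HSC, against 7.15 to 7.51 in wildtype HSC. In wildtype HSC, Esam and Eng averaged 10.1 and 10.2, and Emcn and Cldn5 averaged 5.81 and 5.06. Emcn and Cldn5 passed the filter only through the wildtype HSC arrays, since too few other arrays reached it. Apart from that of Krt18, the calls in the marker lists were not repeated with an array left out. The other endothelial markers did not pass. Tie1 differed by -1.48, Vwf by -0.87, Tek by -0.82, Pecam1 by -0.58, Kdr by -0.33, Egfl7 by -0.19 and Plvap by 0.65. Of 5 stromal markers 1 fell (Col1a2), with list means of 6.38 to 6.504 and 6.61 to 6.62, and of 5 macrophage markers none passed in HSC. The B cell marker mean was 5.03 to 5.23 in hypomorph HSC and 5.51 in wildtype HSC, with 2 of 9 fallen. The part of such cells in the member differences was not tested, and in bulk RNA fewer cells of a type and less RNA per cell cannot be told apart.

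The arrays also differed in Eif2s3y, a Y-linked gene, and in Xist, which is transcribed from the inactive X chromosome of female cells. Xist gave 9.83, 12.7 and 12.5 in hypomorph HSC, against 11.96 and 12.6 in wildtype HSC. Eif2s3y gave 9.31, 6.95 and 8.10 in hypomorph HSC, against 8.68 and 2.35 in wildtype HSC. Of the HSC arrays, wildtype HSC array 2 was low in Eif2s3y, and the others gave both transcripts at 6.95 or above. Wildtype HSC array 1, which had the higher Eif2s3y value of its group, was also the one with the high Ndnf (9.18) and Sdc4 (6.96) values. The part of the sex of the mice in those values was not tested.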

How the data were processed

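RNA of sorted HSC, MP and B cell progenitors was measured on Affymetrix expression arrays. Per the labels' protocols, RNA was extracted with the Qiagen RNeasy Micro kit, and biotinylated cRNA was made from 35000 to 100000 sorted cells with the small sample protocol. The authors deposited log2 values made with RMA, per the submitters' processing notes; the RMA version was not given in the sources used. The log2 scale was read from the values, since they run from 1.93 to 14.99 with array medians of 4.56 to 4.74. The table has 45101 probe sets in 24 columns: 13 of a normalization of all arrays, used here, and 11 of a second one made from the HSC and MP arrays alone. The columns of the same label correlated at 0.998679 or above between them, against at most 0.994866 for columns of different labels. Columns of the same label were counted as 1 replicate.

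Of the probe sets, 34958 have 1 gene symbol, 932 several and 9211 none in the platform annotation; looking up 34754 by Entrez identifier changed 0 symbols. Probe sets with at least 2 of 13 arrays at or over the median of all values (4.64) were kept, and a gene was represented by its probe set of highest mean. A 5-group linear model with 8 residual degrees of freedom was fitted to all 12765 genes with limma 3.58.1 in R 4.3.3, with Benjamini-Hochberg adjustment over all of them and a threshold of 0.05. The fit was run on simulated data with planted shifts, as a check of the code only and not of the calls in these arrays. A planned test of the members between B cell progenitors and MP is given as values only, since the wildtype MP arrays helped choose them. Named list genes were the up to 3 called genes with the largest change per list and comparison, or, with no call, that of smallest p; the nearest genes were 3 per member; further genes were named where a count was 5 or fewer, the product pairs with a member's, or a marker defines a cell type. The members and lists were chosen with earlier results of these data known.

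Same-numbered arrays did not deviate together (correlations from -0.312 to 0.301, over 0.1 in 6 of 23 pairs), so replicate numbers were not used as a block.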

Additional observations from a re-analysis of the deposited data

Results flagged for a closer look

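Selenom differed between genotypes in opposite directions in the 2 cell types: every hypomorph array was lower than every wildtype array in HSC and higher in MP, with a difference of effects of -2.89, which was not tested because it chose the gene.

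For 8 list genes the limma test of the HSC genotype effect minus the MP genotype effect passed, where 5.64% of all genes did. In 2 of them the test passed under every alternative tried: Pde1b (-2.04, limma adjusted p = 0.00383, 0.00255 to 0.0193 with 1 array left out) and Krt7 (-1.92, 0.00375, 0.00272 to 0.0203). The other 6 did not keep it under every alternative. With 1 array left out, the limma adjusted p ranged from 0.00206 to 0.0743 for Sdc4 (-1.93, adjusted p = 0.0252), from 0.0109 to 0.0692 for Fgfr1 (-1.57, 0.0221), from 0.0166 to 0.142 for Prkar2b (1.26, 0.0349), from 0.0145 to 0.166 for Npr2 (-2.27, 0.0375), from 0.00879 to 0.153 for Vim (1.28, 0.0384) and from 0.0142 to 0.136 for Smad6 (-1.55, 0.0416). Of these 6, the limma adjusted p was over 0.05 without wildtype MP array 1, wildtype MP array 3, hypomorph MP array 1 or hypomorph MP array 2 for all 6, without hypomorph HSC array 2 for all but Sdc4, and without wildtype HSC array 2 for Npr2, Prkar2b, Smad6 and Vim.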

How the results depend on the processing

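No member difference in HSC, nor the HSC difference minus the MP difference, turned its sign under the alternatives tried: the authors' second RMA set, array centring, dropping the filter, setting it to the 75th percentile, probe-set means, only the arrays compared (for the HSC and MP differences), the replicate block and leaving out each array. Ndnf gave no value at the 75th percentile. The members were chosen on these values, and their HSC genotypes did not overlap in the probe sets used. Leaving out 1 array could therefore not turn the HSC sign, so the kept sign is no support. With probe-set means the HSC differences were -2.06 for Pde2a and -1.61 for Ndnf, and the differences of effects were -2.11 for Pde2a, -1.69 for Ndnf and -2.16 for Krt8. With 1 array left out, the HSC difference ran from -3.34 to -2.31 for Pde2a, -2.95 to -2.28 for Inha, -4.78 to -1.45 for Ndnf and -2.89 to -2.29 for Krt8. The difference of effects ran from -3.49 to -2.46 for Pde2a, -2.53 to -1.87 for Inha, -4.76 to -1.43 for Ndnf and -2.94 to -2.35 for Krt8. In B cell progenitors minus MP, Selenom ran from -2.12 to -0.60, and Krt8 was -0.63 with probe-set means and -0.66 with the replicate block. Counts over all genes depended on the arrays. HSC calls were 686 higher and 694 lower, 254 to 833 and 202 to 967 with 1 array left out, and 82 and 58 with only the arrays compared; lower calls were 453 after centring and 421 with the replicate block. MP calls were 43 higher and 32 lower, 21 to 75 and 16 to 108 with 1 array left out, and 80 and 84 with only the arrays compared. Calls of the difference of effects were 417 higher and 303 lower, 153 to 908 and 89 to 548 with 1 array left out, 231 and 145 with the replicate block, and 173 lower after centring and 200 lower at the 75th percentile. B cell progenitor calls lower than MP were 3150, and 1961 to 3406 with 1 array left out. For the 8 lists, HSC calls were 0 to 5 higher and 6 to 13 lower with 1 array left out, 0 and 3 with only the arrays compared, and 2 higher with the replicate block, and the MP count was 0 in the second RMA set. Replicate numbers were not taken to pair the arrays, though pairing was not excluded. Of 1095 values of named list genes under alternatives, 956 kept their side of the threshold, 135 lost and 4 gained the call. In 0 of them did a called value turn its sign. Values without a call could turn their sign and still count among the 956, as Pde5a in HSC did (0.09, and -0.14 without hypomorph HSC array 3). Of the 15 nearest genes, 15 remained after centring and 4 in the second RMA set, which has no B cell progenitor arrays; both were chosen after seeing the data, as were the alternatives for the difference of effects in list genes. Signals under the filter value limit how well a difference is sized, as for Inha and Ndnf in MP and B cell progenitors and for Ndnf in most hypomorph HSC arrays. The same holds for the list genes Krt7 and Sdc4 in MP.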
